A study of Mus musculus with 6 samples.

Results

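The 37 genes described here serve protein folding and its stress responses, and were taken by gene symbol from the 24015 symbols counted in each sample. They form 3 arms, namely 12 heat shock genes, 19 genes of the endoplasmic reticulum (ER) and 6 genes of the integrated stress response. All 37 symbols were found in the count data, and 36 passed the filter on low counts that left 15236 genes for testing. The exception was *Trib3*, a pseudokinase gene induced late in the stress response. RNA came from the microdissected arcuate nucleus (ARC) of adult female mice. The sample labels give a mixed CD-1, 129P2 and C57BL/6 background, while the paper's methods name only CD-1 and 129P2 for these mice. The 3 control females carried floxed *Esr1* alleles without Cre (Esr1fl/fl), and the 3 mutant females carried the same alleles with Cre under the *Nkx2-1* promoter (Esr1fl/fl;Nkx2-1-Cre), which removes estrogen receptor alpha across the medial basal hypothalamus rather than in the ARC alone. The comparison asks whether transcripts of the folding machinery differed between mutant and control ARC.

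Cells answer unfolded protein with separate transcriptional programs. In the cytosol, heat shock factor 1 (HSF1) binds heat shock elements and raises chaperones of the Hsp70, Hsp90 and Hsp110 families together with their cochaperones. In the ER, the sensors IRE1, ATF6 and PERK start the unfolded protein response, in which XBP1 and cleaved ATF6 act through ER stress response elements (ERSE) on chaperone and degradation genes. PERK and related kinases also phosphorylate eIF2α, and translation of ATF4 then drives the integrated stress response, with CHOP (*Ddit3*) among its targets. Neuroendocrine neurons of the ARC secrete peptides, so their ER handles a large flow of folding cargo.

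These programs can be read in part from promoter letters. The genes were listed by symbol as members of these programs, so an excess of matches among them is no independent result. RefSeq promoter windows (GRCm38.p6, 250 bases before to 50 bases after each start) were at hand for 31 of the 37 genes, the others being *Hsp90aa1*, *Hsp90ab1*, *Hspa8*, *Atf6*, *Manf* and *Hyou1*. Both strands were searched. The ERSE, searched as CCAAT, then any 9 bases, then CCACG, was in the windows of 7 of 16 ER genes, of 0 of 9 heat shock genes and of 0 of 6 integrated stress response genes, against 0.137% of all 27025 genes with a window. The related ERSE-II, ATTGG, then any base, then CCACG, was in the windows of *Herpud1* and *Dnajb11*, against 0.0444% of all genes. A match is a description of the letters and not evidence of binding. The stretches below show each ERSE or ERSE-II match that lay wholly before the start, since they are the clearest shared feature of the ER arm. Capitals mark the match, with 20 bases on either side, and each is read 5′ to 3′ on the strand of its gene.
Hspa5, chr2:34772005-34772063, plus strand: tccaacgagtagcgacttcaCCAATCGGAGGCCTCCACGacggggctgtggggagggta
Hsp90b1, chr10:86705618-86705676, minus strand: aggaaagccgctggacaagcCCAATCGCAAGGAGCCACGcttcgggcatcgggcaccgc
Hsp90b1, chr10:86705513-86705571, minus strand: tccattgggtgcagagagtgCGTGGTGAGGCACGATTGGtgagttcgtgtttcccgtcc
Canx, chr11:50325780-50325838, minus strand: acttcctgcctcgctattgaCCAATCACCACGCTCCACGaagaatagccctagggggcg
Calr, chr8:84847055-84847113, minus strand: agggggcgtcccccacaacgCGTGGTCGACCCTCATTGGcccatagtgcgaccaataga
Pdia6, chr12:17266471-17266529, plus strand: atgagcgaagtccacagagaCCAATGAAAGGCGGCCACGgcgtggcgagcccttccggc
Dnajc3, chr14:118937807-118937865, plus strand: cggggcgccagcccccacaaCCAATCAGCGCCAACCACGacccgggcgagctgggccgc
Creld2, chr15:88819500-88819558, plus strand: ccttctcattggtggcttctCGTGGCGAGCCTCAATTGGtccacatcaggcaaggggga
Herpud1, chr8:94386357-94386407, plus strand: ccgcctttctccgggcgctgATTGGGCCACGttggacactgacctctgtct

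In *Calr*, *Creld2* and the nearer of the *Hsp90b1* matches, the ERSE was read from the opposite strand. Of the ER genes with a window, 9 of 16 held an ERSE or an ERSE-II, against 0.181% of all genes.

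The heat shock element, searched as GAA, TTC and GAA or as TTC, GAA and TTC with any 2 bases between neighbours, was in the windows of *Hsph1*, *Hspe1* and *Hspd1*, 3 of 9 heat shock genes, and of no gene of the other arms, against 0.662% of all genes. *Hspe1* and *Hspd1* encode the partner chaperonins Hsp10 and Hsp60 of the mitochondrial matrix and are transcribed away from each other on chromosome 1, so both windows cover the same element. It is printed on the plus strand with overlapping matches of both forms in capitals, because it is the only such element before a start among the members searched.
Hspe1 and Hspd1, chr1:55088053-55088082, plus strand: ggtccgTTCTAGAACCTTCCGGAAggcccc

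RefSeq gives *Hspd1* a further start at position 55088243, on the far side of the *Hspe1* start at 55088148. In *Hsph1* the element lay after the start, 15 to 27 bases past the nearer of the gene's starts. The C/EBP-ATF response element that ATF4 binds, searched as TGATGNAA, was in the windows of *Chac1*, *Trib3* and *Herpud1*, against 4.51% of all genes. It overlapped no other match. The UPRE, TGACGTGG, was in none of the 31 windows, against 0.714% of all genes.

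**Figure D1:**
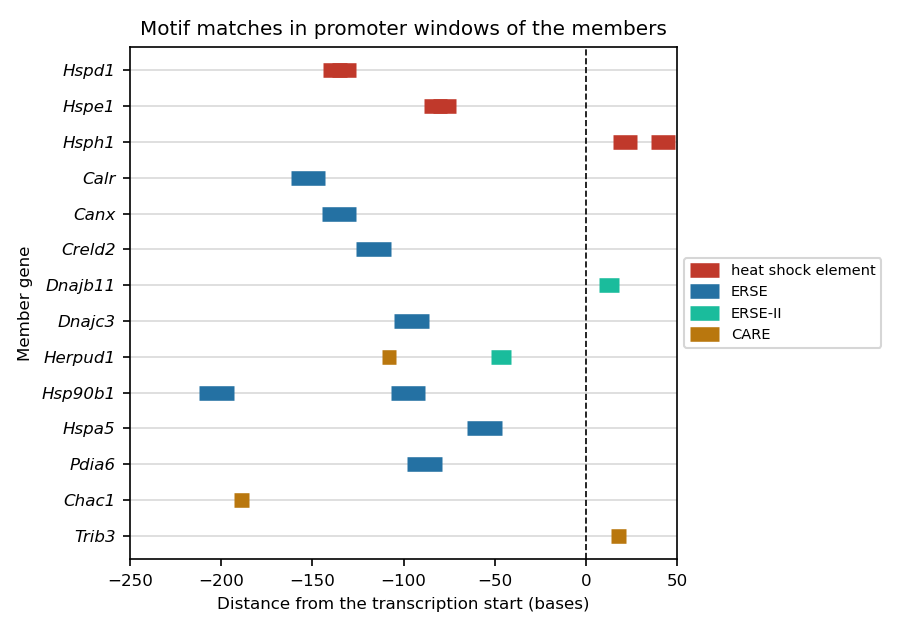
Positions of motif matches in the promoter windows of the 14 members that held at least 1, in bases from the transcription start (dashed line), coloured by motif. ERSE matches sat between 212 and 47 bases before the start in 7 ER genes, and *Hsph1* shows the same element counted from each of its starts.

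Depth was between 11792440 and 17877137 counts on genes per sample. Levels are given as counts scaled to the library size after TMM normalization (CPM), always in the order of replicates 1, 2 and 3. *Esr1*, the deleted gene, had 64.5, 57.5 and 48.5 CPM in controls against 11.8, 9.55 and 7.06 CPM in mutants, and its log2 fold change was -2.59 with a standard error of 0.18 (adjusted *p* = 0.000884 by the quasi-likelihood test of edgeR). In these libraries 3 counts correspond to between 0.175 and 0.248 CPM, a floor that covers counting error only. Markers of the ARC summed to between 745.1 and 812.1 CPM in controls and 791.6 and 1049 CPM in mutants, and no marker list was at 0. Control replicate 2 stood apart in the 5 markers of the pars tuberalis and pituitary, which summed to 6.28 CPM there and to between 501.3 and 786.5 CPM in the other 5 samples.

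None of the 36 tested members had an adjusted p-value under 0.05 in edgeR's test, where 0.118% of all genes did, 0.0591% higher and 0.0591% lower in mutants. DESeq2 also called none of them, against 1.27% of all genes. Before adjustment, *Bag3*, *Hspa1a* and *Manf* had p-values under 0.05 in edgeR's test, all lower in mutants, and none was higher. That is 3 of 36 members, where 8.85% of all genes had such a p-value, 4.01% lower and 4.84% higher. In DESeq2, 2 members had one, a count for which the share over all genes was not taken. The arms differed in how their members lay around 0. Log2 fold changes were below 0 for 11 of 12 heat shock genes, 18 of 19 ER genes and 1 of 5 integrated stress response genes, against 49% of all genes, with medians of -0.13, -0.043 and 0.079 against 0.0036. Members of 1 program share regulators and sample variation, so these signs are not independent of each other, and no test of the lists was made. In 6 members the 3 mutant values lay below the 3 control values without overlap, 4 in the heat shock arm and 2 in the ER arm, and in no member did they lie above. Over all genes, 7.88% had mutants wholly below and 7.88% wholly above. Permuting the genotypes of 6 samples exactly could not bring the two-sided p-value of a single gene under 0.1. The p-values of edgeR set each difference against the spread between these samples, which was estimated with information shared across genes.

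**Figure D2:**
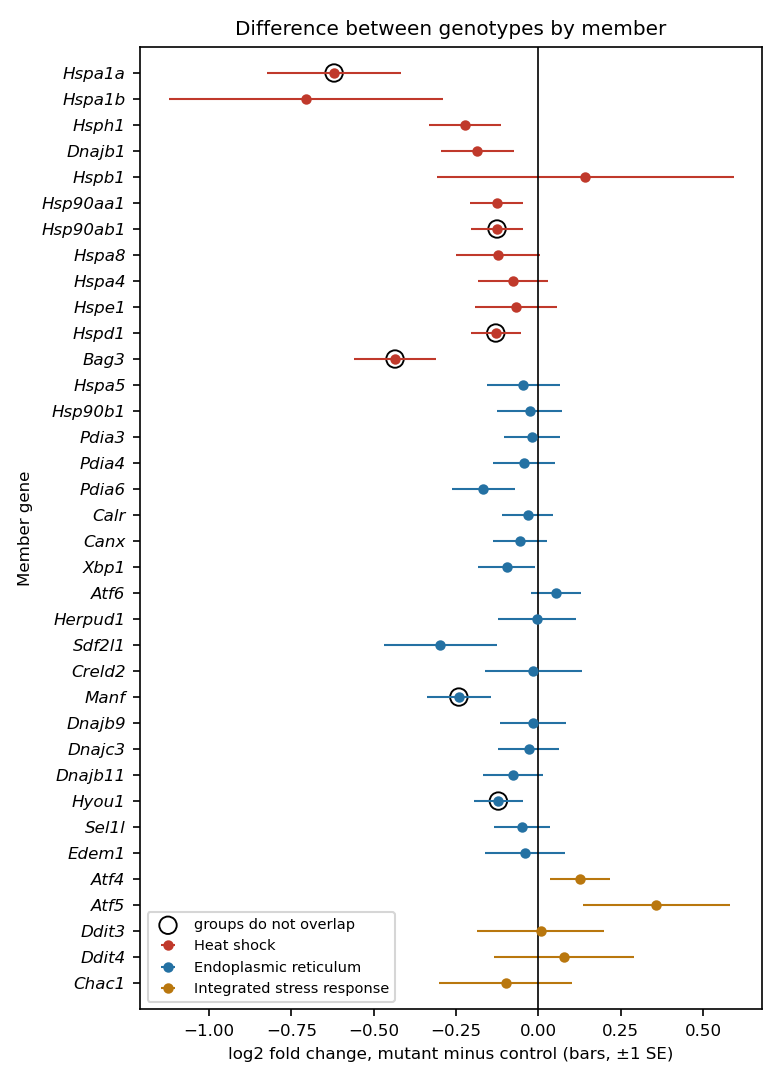
Log2 fold change of mutant over control for the 36 tested members, with bars of 1 standard error either side, coloured by arm, and open circles around the 6 members whose groups did not overlap. Heat shock genes sit mostly left of 0 with *Hspa1a* at -0.62 and *Bag3* at -0.44, ER genes cluster near 0, and no member passed the threshold after adjustment.

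Among the inducible Hsp70 genes, *Hspa1a* had 8.24, 8.90 and 6.10 CPM in controls against 5.45, 4.46 and 5.26 CPM in mutants. Every mutant was below every control (log2 fold change -0.62, standard error 0.20, adjusted *p* = 0.383, edgeR). Its neighbour and near copy *Hspa1b* was at 1.01, 1.86 and 1.08 CPM in controls and 0.743, 1.01 and 0.666 CPM in mutants, so mutant replicate 2 reached the lowest control (log2 fold change -0.71, standard error 0.42, adjusted *p* = 0.670). Without control replicate 2 its log2 fold change was -0.36. Both lie on chromosome 17 of NCBIM37, *Hspa1a* from 35106144 to 35109069 and *Hspa1b* from 35093381 to 35096183, each as a single exon block on the minus strand. Reads from sequence they share cannot be assigned to either, so the split between them is uncertain. Summed, they were at 9.25, 10.8 and 7.17 CPM in controls and 6.19, 5.47 and 5.93 CPM in mutants, without overlap. The sum restores no reads that were dropped for having several places, and it rests mostly on *Hspa1a*.

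*Bag3* encodes a cochaperone that releases substrate from Hsp70 and links it to autophagy, and it had the smallest p-value of all members. It was at 20.4, 20.1 and 20.1 CPM in controls and at 14.3, 16.6 and 13.8 CPM in mutants. The controls lay close together and every mutant was lower (log2 fold change -0.44, standard error 0.12, unadjusted *p* = 0.00536, adjusted *p* = 0.288, edgeR). The gene lies on chromosome 7 from 135667097 to 135690491 (NCBIM37), and all of its exonic sequence was unique in the genome.

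The Hsp110 proteins exchange nucleotide on Hsp70. *Hsph1*, the inducible member, was at 922, 1079 and 795 CPM in controls and 807, 781 and 810 CPM in mutants (log2 fold change -0.22, standard error 0.11, adjusted *p* = 0.597). Control replicate 3 lay among the mutants, and without control replicate 2 the log2 fold change was -0.10. *Hspa4*, its constitutive relative, was at 740, 724 and 573 CPM in controls and 671, 617 and 643 CPM in mutants, with the lowest value of all in control replicate 3 (log2 fold change -0.077, standard error 0.11, adjusted *p* = 0.886). *Dnajb1*, the J-domain protein that loads substrate on Hsp70, was at 143, 107 and 117 CPM in controls and 105, 103 and 115 CPM in mutants, and the groups overlapped (log2 fold change -0.19, adjusted *p* = 0.673, and -0.059 without control replicate 1).

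Hsp90 matures kinases and steroid receptors, estrogen receptor alpha among them. *Hsp90ab1*, the constitutive cytosolic form, was at 1556, 1575 and 1492 CPM in controls and 1407, 1410 and 1421 CPM in mutants. The spread within each group was narrow and the groups did not overlap, but the difference was small (log2 fold change -0.13, standard error 0.078, adjusted *p* = 0.687). Of the inducible form *Hsp90aa1*, control values ran from 316 to 363 CPM and mutant values from 302 to 320 CPM (log2 fold change -0.13, adjusted *p* = 0.702). The mitochondrial *Hspd1* was at 114, 111 and 105 CPM in controls and 99.5, 98.8 and 104 CPM in mutants without overlap (log2 fold change -0.13, standard error 0.076, adjusted *p* = 0.671). *Hspe1*, across the shared element shown above, overlapped between groups (log2 fold change -0.068, standard error 0.13, adjusted *p* = 0.917). *Hspa8*, the constitutive Hsc70, had a log2 fold change of -0.12 (adjusted *p* = 0.846). *Hspb1*, a small heat shock protein gene, was the only heat shock member with a positive value, at 0.14 with a standard error of 0.45, and its control values alone ran from 0.814 to 2.55 CPM.

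**Figure D3:**
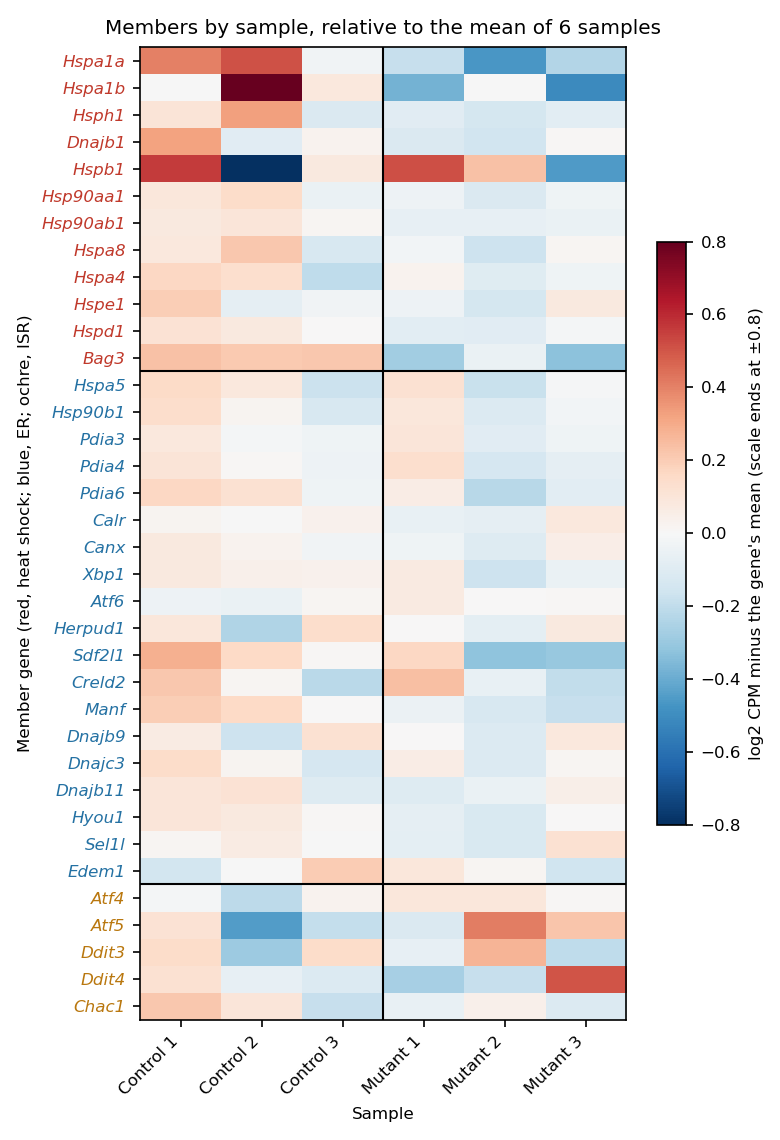
Log2 CPM of each tested member in each of the 6 samples minus the mean of that gene, in colour from blue (lower) to red (higher), with arms parted by horizontal lines and genotypes by the vertical line. Control replicates 1 and 2 hold the highest value of 6 heat shock members each, *Bag3* is red in all 3 controls, and values beyond 0.8 take the end colour.

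ER chaperones were abundant and nearly level. *Hspa5* (BiP), the Hsp70 of the ER and the usual readout of the unfolded protein response, was at 872, 829 and 694 CPM in controls and 852, 692 and 777 CPM in mutants. Each group spanned most of the range of the other (log2 fold change -0.046, standard error 0.11, adjusted *p* = 0.944, edgeR), and the approximate 95% interval reached from -0.26 to 0.17. *Hsp90b1* (GRP94), the Hsp90 of the ER, was at 1937, 1788 and 1613 CPM in controls and 1876, 1634 and 1731 CPM in mutants (log2 fold change -0.027, standard error 0.098, adjusted *p* = 0.970). *Canx*, the membrane-bound lectin chaperone of glycoproteins, was at 940, 908 and 873 CPM in controls and 869, 827 and 922 CPM in mutants (log2 fold change -0.056, standard error 0.082, adjusted *p* = 0.895). Its soluble partner *Calr* and the disulfide isomerase *Pdia3* that works with both had log2 fold changes of -0.032 and -0.019.

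In 2 ER members, *Manf* and *Hyou1*, every mutant lay below every control. *Manf*, an ER-resident protein that binds BiP and is secreted under stress, was at 39.5, 38.5 and 34.6 CPM in controls and at 33.4, 31.6 and 30.4 CPM in mutants (log2 fold change -0.24, standard error 0.098, unadjusted *p* = 0.033, adjusted *p* = 0.502). *Hyou1* (GRP170), the nucleotide exchange factor of BiP, was at 166, 164 and 157 CPM in controls and 148, 143 and 156 CPM in mutants, where control replicate 3 and mutant replicate 3 nearly met at 156.6 and 156.1 CPM (log2 fold change -0.12, standard error 0.075, adjusted *p* = 0.687). *Sdf2l1*, a partner of ER J-domain proteins, had the lowest log2 fold change of the ER arm at -0.30, with a standard error of 0.17 and an adjusted *p* of 0.658.

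Of the regulators, *Xbp1* was at 96.96, 94.5 and 94.3 CPM in controls and 96.7, 82.0 and 88.7 CPM in mutants (log2 fold change -0.097, standard error 0.085, adjusted *p* = 0.805). Counts per gene do not separate its spliced from its unspliced form. *Atf6* was the only ER member with a positive value, at 86.0, 85.4 and 89.4 CPM in controls and 93.1, 88.7 and 89.1 CPM in mutants (log2 fold change 0.055, standard error 0.076, adjusted *p* = 0.888). The 12 remaining ER members, which include the J-domain proteins *Dnajb9*, *Dnajb11* and *Dnajc3* and the degradation genes *Sel1l*, *Edem1* and *Herpud1*, had log2 fold changes between -0.30 and -0.0034. ER genes with an ERSE or ERSE-II in the window had a median log2 fold change of -0.032 (9 genes, -0.17 to -0.0034), and those with neither one of -0.043 (7 genes, -0.30 to -0.016).

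The integrated stress response arm was lower in level and more variable. *Atf4* was at 64.1, 56.1 and 66.2 CPM in controls and 69.0, 69.0 and 65.3 CPM in mutants, with 1 control above the lowest mutant (log2 fold change 0.13, standard error 0.091, adjusted *p* = 0.751). ATF4 is controlled mainly through translation, which these counts do not measure. *Ddit3* (CHOP), its proapoptotic target, was at 10.05, 7.39 and 10.04 CPM in controls and 8.66, 10.99 and 7.86 CPM in mutants (log2 fold change 0.0069, standard error 0.19, adjusted *p* = 0.998). *Ddit4*, an inhibitor of mTORC1 that also answers to glucocorticoids, was at 11.1, 9.77 and 9.47 CPM in controls and 8.50, 8.98 and 14.5 CPM in mutants, and its small positive value rested on mutant replicate 3 (log2 fold change 0.079 with it and -0.21 without it). *Atf5* had the largest positive value of any member, 0.36 with a standard error of 0.22, and *Chac1*, which degrades glutathione, had -0.099. *Trib3* was at 0.737, 0.407 and 0.287 CPM in controls and 0.660, 0.0628 and 0.133 CPM in mutants, from 1 to 11 counts per sample, and was not tested.

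Arm levels were compared by sample as the mean over tested members of log2 CPM minus the mean of each gene. The heat shock arm was at 0.20, 0.12 and -0.010 in the controls and at -0.063, -0.10 and -0.14 in the mutants, so all mutants lay below all controls, and the means differed by -0.20. Control replicate 3 lay closer to the mutants than to control replicate 1. The ER arm was at 0.097, 0.023 and -0.016 in controls and 0.043, -0.11 and -0.033 in mutants, which overlapped, with a difference of -0.069 (-0.11 to -0.029 with a sample left out). The integrated stress response arm was at 0.12, -0.18 and -0.062 in controls and -0.083, 0.13 and 0.084 in mutants, which also overlapped, with a difference of 0.085 (0.015 without control replicate 2 and 0.16 without control replicate 1). Control replicates 1 and 2 held the highest value of 6 heat shock members each, and mutant replicate 2 held the lowest value of 7 of the 12. Mutant replicate 2 was also lowest for 10 of 19 ER members and control replicate 1 highest for 9. How often each sample was highest or lowest over all genes was not taken. The summed level of 5 markers of the neighbouring ventromedial nucleus was lowest in control replicate 1 and mutant replicate 1. These samples had the highest ER arm levels. The sums were 89.25, 204.7 and 144.0 CPM in controls and 108.7, 249.8 and 311.6 CPM in mutants. Not every marker followed its sum, and *Tac1* was lowest in mutant replicate 2, at 28.1 CPM against 50.9 CPM in control replicate 1. The sum of tanycyte and ependymal markers was highest in the same samples, at 495.4 and 568.4 CPM against 251.8 to 432.9 CPM elsewhere. Within that list *Foxj1*, *Ccdc153* and *Tmem212* were lowest in those samples. The part of dissection in the arm levels was not tested. Without control replicate 2, 12 of 12 heat shock, 18 of 19 ER and 2 of 5 integrated stress response members were below 0. Without control replicate 1, 10 of 12 and 11 of 19 were, and without mutant replicate 2, 11 of 12 and 10 of 19. The count of the ER arm was thus lower without either of those samples. The share of all genes below 0 was not taken in these fits. The members with mutants wholly below controls numbered 4 in the heat shock arm and 2 in the ER arm. Without control replicates 1, 2 and 3 in turn they were 5 and 2, 5 and 3, and 8 and 4 (13.4%, 12.3% and 13.3% of all genes). Without mutant replicates 1, 2 and 3 in turn they were 4 and 6, 5 and 2, and 5 and 5 (13.4%, 11.2% and 12.3%).

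**Figure D4:**
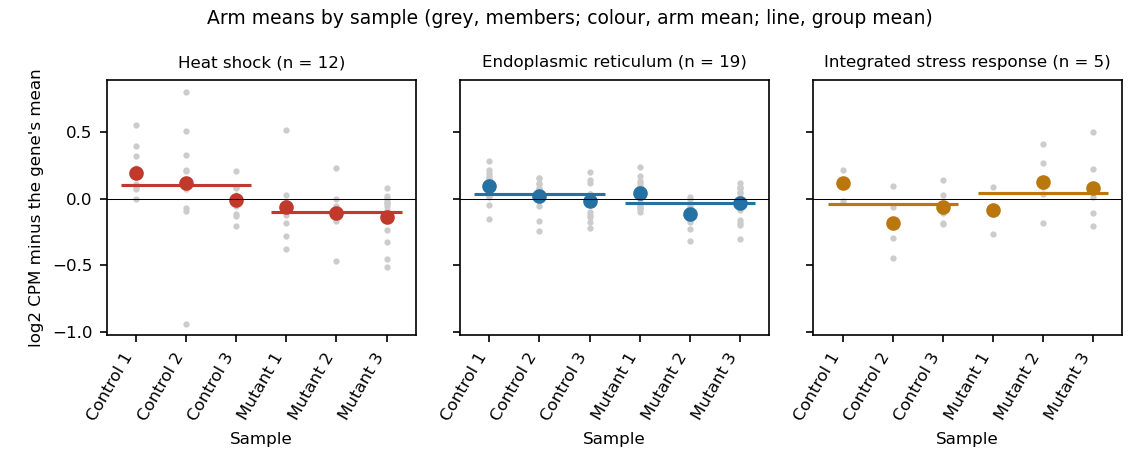
Mean over members (coloured points) of log2 CPM minus the mean of each gene, by sample and arm, with single members in grey and lines at the group means. In the heat shock arm the 3 mutants lie between -0.14 and -0.063, below the lowest control at -0.010, and in the other arms the groups overlap.

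Other cell types were measured in the same libraries. All 8 oligodendrocyte markers were above the controls in every mutant, with summed levels of 676.4 to 1269 CPM in controls and 1663 to 1793 CPM in mutants, and 3 of 7 microglia markers were, with sums of 155.4 to 169.9 and 208.3 to 211.6 CPM, where 7.88% of all genes lay wholly above. Of the oligodendrocyte markers, 1 passed the adjusted threshold in edgeR's test and 4 in DESeq2, where 0.118% and 1.27% of all genes did. The 7 neuronal markers summed to 3419 to 4446 CPM in controls and 3682 to 5225 CPM in mutants. None of the defining markers was at 0 in all samples. In bulk tissue, fewer cells of a type and less RNA per cell cannot be told apart, and the part of these differences in the values of the heat shock genes was not tested. The 10 immediate early genes, which answer neuronal activity and tissue handling, summed to 316.4, 124.9 and 206.1 CPM in controls and 326.9, 306.2 and 500.1 CPM in mutants. For 6 of them every mutant was above every control, where 7.88% of all genes lay wholly above. In edgeR's test 1 of them, *Dusp1*, passed the adjusted threshold, and in DESeq2 *Dusp1* and *Npas4* did. The relation of the immediate early genes to the heat shock genes was not tested.

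Further genes of the same pathways, 98 in all, gave 97 tested genes, of which 0 passed the adjusted threshold in edgeR's test and 0 in DESeq2. In edgeR's test 7 had an unadjusted p-value under 0.05, where 8.85% of all genes did. Of 39 further heat shock genes, the smallest p-values were those of *Stip1*, *Cryab* and *Fkbp4*. *Stip1* (HOP), which bridges Hsp70 and Hsp90, was at 253, 247 and 219 CPM in controls and at 192, 197 and 191 CPM in mutants, without overlap (log2 fold change -0.31, standard error 0.080, adjusted *p* = 0.240, edgeR). *Fkbp4* (FKBP52), an Hsp90 cochaperone of steroid receptors, was lower in every mutant as well, with control values from 117 to 132 CPM and mutant values from 103.1 to 109 CPM (log2 fold change -0.20, standard error 0.081, adjusted *p* = 0.5). *Cryab* was higher in every mutant (log2 fold change 0.40, standard error 0.13, adjusted *p* = 0.376), and it is a small heat shock protein that oligodendrocytes also express. Among 32 further ER genes, *Hspa13* was lowest in p-value and below the controls in every mutant (log2 fold change -0.27, standard error 0.080, adjusted *p* = 0.320), followed by *Mbtps1* at 0.19 and *Wfs1* at -0.15. Among 27 further integrated stress response genes, *Nupr1* (log2 fold change 0.82, standard error 0.24, adjusted *p* = 0.309), the serine synthesis gene *Psat1* (0.29, standard error 0.095, adjusted *p* = 0.381) and *Stc2* (0.73, standard error 0.33, adjusted *p* = 0.561) were above the controls in every mutant. Over the 97 genes, 5 lay wholly above and 7 wholly below the controls, where 7.88% of all genes lay wholly above and 7.88% wholly below. Of the 97, 57.7% had a log2 fold change below 0, against 49% of all genes, and the median was -0.012.

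Levels between genes can be compared only per length, and in this family also with regard to how much sequence a 50-base read can place. In the NCBIM37 genome, 28 of the 37 members had at least 95% of their exonic 50-base windows at a single place, against 87.3% of 13956 tested genes with a single gene model, and 5 members had under 50%, against 1.49%. All 5 were heat shock genes, namely *Hspa1a*, *Hspa1b*, *Hspb1*, *Hsp90aa1* and *Hspd1*. Of the coding sequence of *Hspa8*, 8.52% of windows were unique. For *Hspa1a*, *Hspa1b*, *Hspb1* and *Hsp90aa1* the shares were 15.2%, 17.7%, 15.6% and 16.3%, and for *Hspa5*, *Canx* and *Atf4* they were 100%. Per kilobase of exon, *Hspa8* was at 4.72 CPM, below *Bag3* at 6.77 CPM and *Hspe1* at 13.5 CPM. Per kilobase of unique sequence, *Hspa8* was at 7.71 CPM, above *Bag3* at 7.32 CPM and below *Hspe1* at 18.7 CPM. Its merged exon model spanned 4156 bases in 2 blocks, with 2545 unique windows against 1619 coding windows in all. The unique sequence of *Hspa8* was thus mostly not coding, and neither value is a level per base of its coding sequence. The treatment of reads with several places in the counting was not given in the sources used here. Levels of genes with shared sequence are lower bounds where such reads were dropped. The treatment was the same for all samples as far as the sources tell. The part of shared sequence in the fold changes was not tested.

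Per kilobase of exon, the most abundant members were *Hsp90ab1* at 493 CPM, *Hsp90b1* at 437 CPM, *Hspa5* at 224 CPM, *Canx* at 213 CPM and *Pdia3* at 212 CPM, against a median of 5.77 CPM over tested genes. *Hsph1* and *Hspa4* followed at 123 and 120 CPM. The order depended on the scale, since per kilobase of unique sequence *Hsp90aa1*, at 221.1 CPM, lay above *Hspa4* and *Hsph1*, at 143.9 and 140.5 CPM. *Atf4* led its arm at 37.7 CPM per kilobase of exon, ahead of *Ddit4* at 6.17 and *Ddit3* at 5.35, and *Trib3* was lowest at 0.179 CPM per kilobase. Summed over members, controls gave the ER arm 5719 ± 364 CPM and mutants gave it 5554 ± 330 CPM (mean and SD, n = 3 per genotype). The heat shock arm took 3799 ± 297 CPM and 3439 ± 59.1 CPM, and the integrated stress response arm 92.2 ± 7.92 CPM and 99.4 ± 2.55 CPM. The heat shock sum of control replicate 3, 3465 CPM, lay between those of mutant replicates 2 and 3, 3371 and 3475 CPM, so the sums overlapped.

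**Figure D5:**
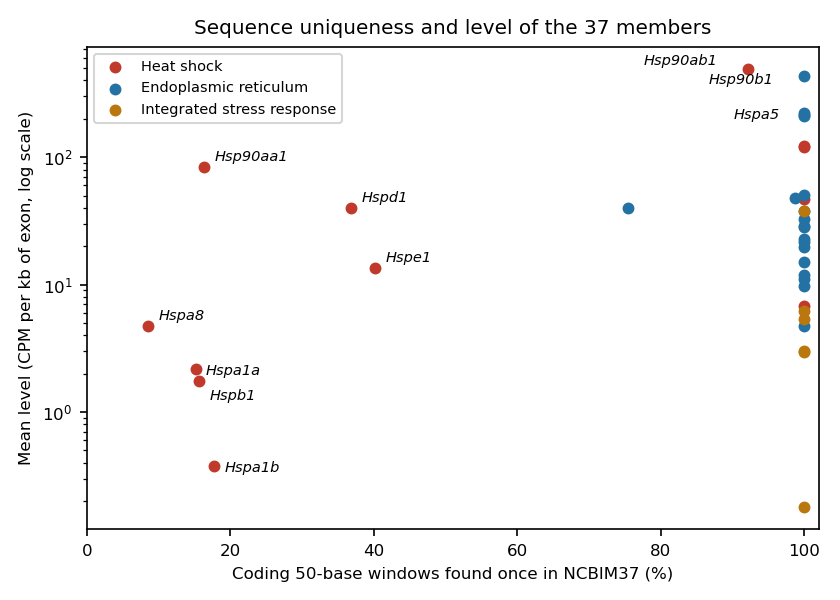
Share of coding 50-base windows found once in NCBIM37 (x axis, percent) against the mean level over 6 samples in CPM per kilobase of exon (y axis, log scale) for the 37 members, coloured by arm. Most members sit at 100%, while *Hspa8* is at 8.52% and 4.72 CPM and *Hsp90aa1* at 16.3% and 83.6 CPM.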

How the data were processed

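Libraries were prepared from 50 ng of total RNA per sample of ARC cut from a 2 mm hypothalamic section. The authors mapped reads with TopHat2 2.1.0 (submitters' processing notes, build mm9, which is NCBIM37; the methods name NCBI37/mm10), counted them with HTSeq 0.6 and deposited raw counts per gene symbol. Strand use was not given in the sources used here, so overlapping genes such as *Hspd1* and *Hspe1* may share reads. Genotype and replicate came from the sample titles. The 37 members and all lists were chosen with earlier results of these data known.

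Counts were tested with edgeR 4.0.16 (R 4.3.3; default filter, TMM, robust quasi-likelihood test) and p-values adjusted by the Benjamini-Hochberg method over 15236 genes, at a threshold of 0.05. Log2 CPM used a prior count of 2. Standard errors were the absolute log2 fold change divided by the square root of the F statistic of edgeR's test. The approximate 95% interval took 1.96 of them either side, which is narrower than that test implies. Values in every sample are given for members whose groups did not overlap, the 3 most abundant per arm and 8 set members; of the further pathway genes, the 3 with the smallest p-values per list; *Dnajb1* was added after its values were seen. Alternatives were RLE, DESeq2 1.42.0, the tool of the study, limma 3.58.1 voom, other filters, the replicate block and each sample left out. Gene models were GENCODE's for NCBIM37, matched by symbol for 91.6% of tested genes, and windows were matched exactly on both strands. The tests were checked on simulated counts. Comparisons of pairs of samples found none within sampling noise (chi-square per degree of freedom 5.5 to 23.3). Protein sequences were not analysed here.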

Additional observations from a re-analysis of the deposited data

How the results depend on the processing

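No member and no further pathway gene passed the adjusted threshold in any of the 12 alternative fits. The smallest adjusted p-value of a member was 0.245 with DESeq2 and 0.186 with the replicate block. For 17 members followed through these fits (*Hspa1b* was filtered out at 10 counts in every sample), 194 of 203 log2 fold changes kept their direction, and none of the others passed the threshold. The exceptions were *Hspa5* without control replicate 1 (0.020) and mutant replicate 2 (0.026), *Hsp90b1* without the same samples (0.037 and 0.017), *Ddit3* with DESeq2 (-2.3e-05), with a minimum of 1 count in any sample (-0.0030), without control replicate 2 (-0.13) and without mutant replicate 2 (-0.15), and *Ddit4* without mutant replicate 3 (-0.21). Over all 36 tested members, values crossed 0 with a sample left out in 13, widest in *Hspb1* (-0.21 to 0.55). With each sample left out in turn, log2 fold changes ranged from -0.14 to 0.026 for *Hspa5*, -0.093 to 0.037 for *Hsp90b1*, -0.15 to 0.11 for *Ddit3* and -0.21 to 0.21 for *Ddit4*. Over all genes, 18 passed with edgeR, 191 with DESeq2, 106 with a minimum of 1 count in any sample, 123 with the replicate block and from 7 to 46 with a sample left out; the cause was not tested. The labels give same-numbered samples no link beyond the number. Correlations of their deviations were 0.281, the highest of any control with any mutant, 0.0466 and -0.0026. Control replicate 2 correlated best with mutant replicate 3 (0.21). Whether same-numbered samples were handled together is not known here. The difference of the heat shock arm, -0.20, was -0.17 with the median over members and, in an alternative chosen after seeing the data, between -0.26 and -0.16 with a sample left out. The ER difference ran from -0.11 to -0.029 and that of the integrated stress response from 0.015 to 0.16. Depth limits *Trib3* and *Hspa1b* most, at 1 to 32 counts per sample.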
